A study of Homo sapiens with 9 samples.

Results

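The 10 genes described here encode the core machinery that makes and uses microRNAs: DROSHA, DGCR8, XPO5, DICER1, TARBP2, PRKRA, AGO1, AGO2, AGO3 and AGO4. They were chosen by name and matched by Ensembl identifier, and they make up 10 of the 60609 genes in the count tables. All 10 passed the filter on low counts that left 21682 genes for testing. The cells were U2-OS, a human osteosarcoma line, grown under 1 set of conditions. Clones A1 and A4 overexpressed NCBP2, the subunit of the nuclear cap-binding complex that holds the RNA cap, and each gave 3 libraries, lettered A, B and C. The controls were 3 empty-vector clones made the same way with 1 library each: the vector library A came from clone 2, B from clone 3 and C from clone 1. The labels give neither the vector nor its promoter. They do not say whether the 3 libraries of a clone were separate cultures, so p-values measure the spread between these libraries, which may in part be technical, and the NCBP2 arm stands for 2 clones. The molecule is labelled polyA RNA, while the protocol and the sample titles name ribodepletion.

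MicroRNAs begin as hairpins in capped RNA polymerase II transcripts. In the nucleus the Microprocessor, made of the nuclease DROSHA and its RNA-binding partner DGCR8, cuts the hairpin out. XPO5 (Exportin-5) carries it to the cytoplasm, where DICER1, with its double-stranded-RNA-binding partners TARBP2 (TRBP) and PRKRA (PACT), trims it to a duplex. An Argonaute protein keeps 1 strand and uses it to find target mRNAs. The nuclear cap-binding complex is known to work with the Microprocessor through the adaptor SRRT (ARS2). Only long-RNA transcript levels were measured here. Mature microRNAs and proteins were not measured.

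DGCR8 carries microRNA hairpins within its own exons, and the Microprocessor is known to cut its own partner's mRNA there. The GENCODE v44 annotation (GRCh38) places MIR3618 at chr22:20085746-20085833 and MIR1306 at chr22:20086058-20086142, both on the plus strand of DGCR8, where they cover 88 and 85 of its 7326 exon bases. The mature microRNAs from these hairpins are shown because a read lying there fits DGCR8 and a microRNA gene at once, and the tables set reads that fit more than 1 gene apart from the gene counts. RefSeq (GRCh38.p14) lists 3 of them, printed with the seed, bases 2 to 8, in capitals, and no seed is shared.
hsa-miR-3618, chr22:20085797-20085818: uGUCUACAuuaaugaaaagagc
hsa-miR-1306-5p, chr22:20086072-20086093: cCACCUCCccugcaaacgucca
hsa-miR-1306-3p, chr22:20086112-20086129: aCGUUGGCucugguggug
Both microRNA genes were at 0 counts in all 9 libraries. Since they lie wholly within DGCR8 exons on the same strand, any read on them is set apart, and the 0 does not measure their expression. The shared bases are 2.36% of the exon length of DGCR8.

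NCBP2 itself checked the labels. It was measured at 90.6 to 98.4 CPM in the vector libraries, 298.9 to 348.4 in A1 and 456.2 to 1035 in A4, where CPM is the usual depth-scaled read count, with the depth taken as reads assigned to genes and adjusted by TMM, an edgeR step that evens out library composition. Total reads ran from 80341579 in A1 library A to 111784333 in A4 library A, and reads assigned to genes from 29234022 in A1 library A to 50554080 in vector library B. The share of uniquely mapped reads on no gene's exons on the counted strand was 39.9% to 52.4% in 8 libraries. It was 32.4% in vector library B (95% Wilson intervals reach at most 0.0181 percentage points, counting error only). A1 library A, with the fewest reads in genes, correlated with the other libraries in log2 CPM at 0.899 to 0.928. VIM (1302 to 2082 CPM), SPARC, COL1A1, RUNX2 and CDH2 were expressed in every library. The listed marker COL1A2 was near absent (at most 1.15 CPM). Of the 5 genes listed for other cell types or as silent in U2-OS, TERT had 0 counts, ALB at most 7 counts and the leukocyte gene PTPRC at most 2.01 CPM. The epithelial genes CDH1 (0.598 to 3.63 CPM) and EPCAM (2.42 to 5.58 CPM) were counted in every library.

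The 10 transcripts spanned a wide range of abundance. Per kilobase of exon, AGO2 was the most abundant, with a mean over the 9 libraries of 31.3 CPM per kb. DROSHA followed at 26.3, XPO5 at 18.3 and AGO1 at 13.8. PRKRA stood at 7.73, DICER1 at 6.64, AGO3 at 5.52 and DGCR8 at 5.44, and these 4 were close enough that their ranges overlapped from each to the next. AGO4, at 2.87, and TARBP2, at 1.76, were the least abundant. Between neighbours in this order, the library ranges were separate only for DROSHA over XPO5, AGO1 over PRKRA and DGCR8 over AGO4. AGO2 was nevertheless above DROSHA within each of the 9 libraries, XPO5 above AGO1 in 9 and PRKRA above DICER1 in 7. The exon lengths are unions over all annotated transcripts, so a gene with long rarely used exons appears lower on this scale.

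**Figure D1:**
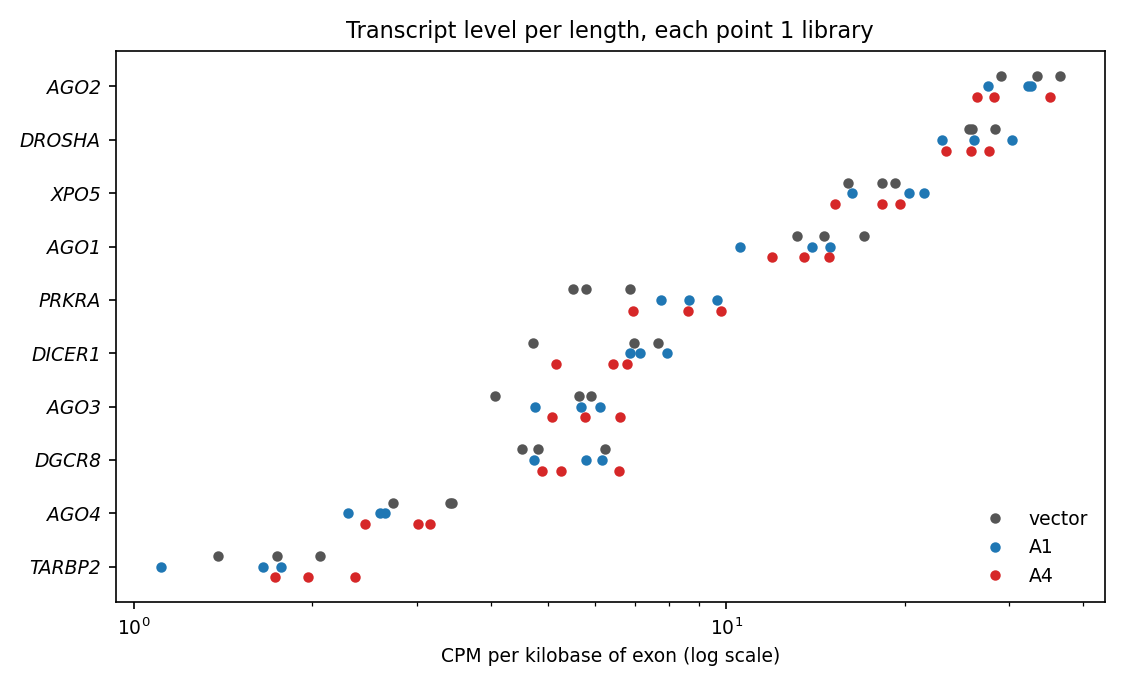
Transcript level of each of the 10 genes in CPM per kilobase of exon (x axis, log scale), each point 1 library, coloured by vector, clone A1 and clone A4, genes ordered by their mean. AGO2 and DROSHA sit at the top (means 31.3 and 26.3), AGO4 and TARBP2 at the bottom (2.87 and 1.76).

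Whether NCBP2 overexpression altered these transcripts was asked with edgeR's quasi-likelihood test over all 21682 genes. A gene was called when its p, adjusted by Benjamini-Hochberg, was under 0.05. In the NCBP2 arm (6 libraries) against vector (3 libraries), 0 of the 10 genes were called, where 0.0184% of all genes were. In A1 against vector, 0 of 10 were called against 0.0646% of all genes. The A4 against vector comparison, which uses the same vector libraries, gave 0 of 10 against 0.115%, and A4 against A1 gave 0 of 10 against 0.161%. At an unadjusted p under 0.05, the counts among the 10 were 1, 1, 1 and 0, where 5.71%, 7.51%, 5.25% and 6.63% of all genes passed. DESeq2 called 0 in each comparison, where it called 0.475%, 1.26%, 0.853% and 1.13% of all genes. Limma voom with library weights called 1, PRKRA, in the NCBP2 arm and 0 elsewhere, where it called 0.996%, 1.37%, 1.07% and 0.687% of all genes. For scale, the NCBP2 transcript's 5.64-fold difference in the NCBP2 arm missed the threshold by edgeR (adjusted p = 0.123), while its 3.31-fold difference in A1 and 7.96-fold difference in A4 passed (adjusted p = 0.0327 and 0.000417 by edgeR).

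The fitted folds of the 10 genes ran from 0.786 (AGO4 in A1) to 1.43 (PRKRA in A1), on both sides of 1. Their median log2 fold change was 0.04 in the NCBP2 arm, 0.04 in A1, -0.04 in A4 and -0.02 in A4 against A1. The medians over all genes were 0.02, -0.02, 0.03 and 0.04. Over the 9971 tested genes whose mean log2 CPM lay within the range of the 10 members, they were 0.0008, -0.0002, -0.014 and -0.031. The 95% intervals of the fold ran from at lowest 0.65 to at highest 1.78 in the NCBP2 arm, from 0.567 to 1.87 in A1, from 0.665 to 1.83 in A4 and from 0.623 to 2.06 in A4 against A1, which is the span of folds that these few libraries allow. The summed level of the 10 transcripts was 1487 ± 82.9 CPM in vector, 1493 ± 104 in A1 and 1444 ± 91.2 in A4 (SD, n = 3 each).

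**Figure D2:**
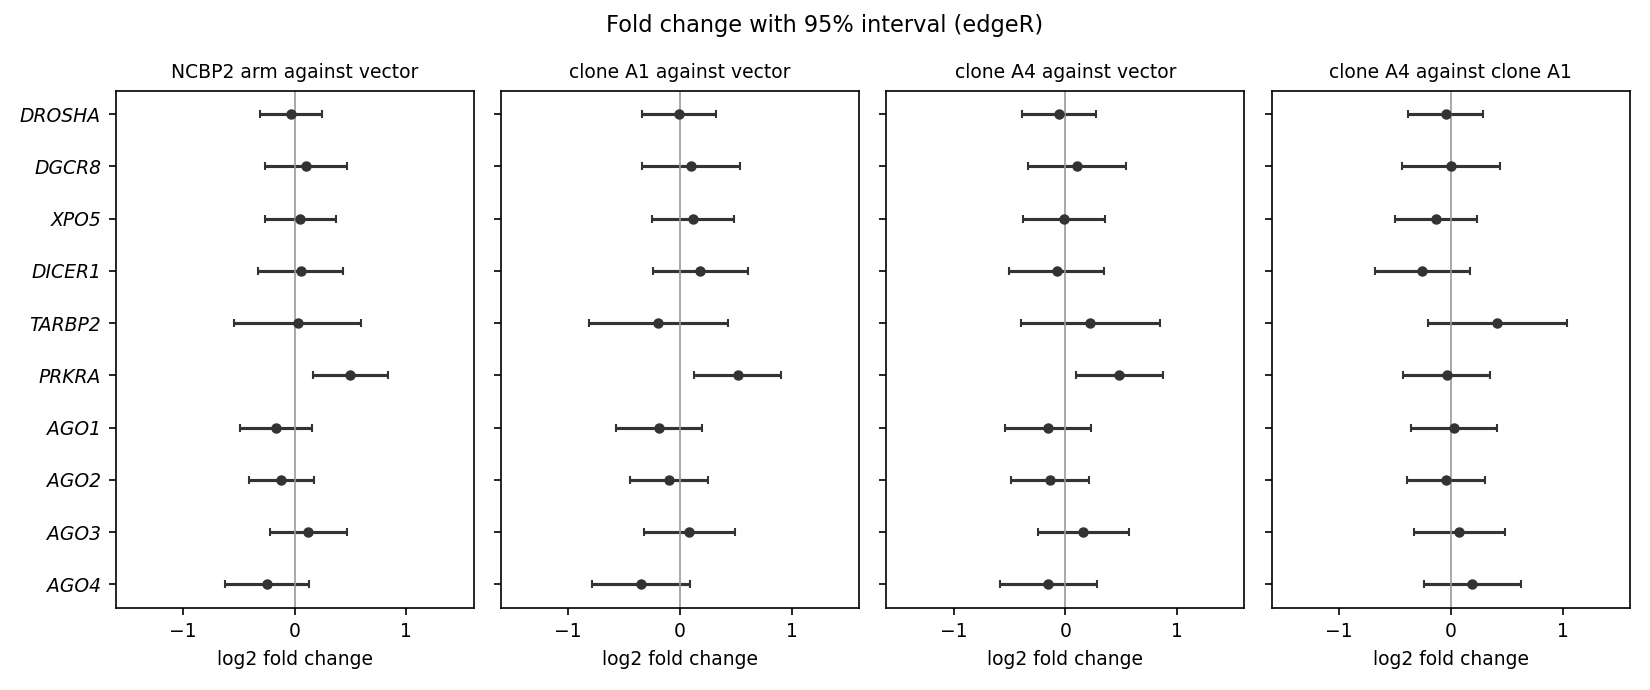
Log2 fold change (x axis) of the 10 genes in the 4 comparisons, points with 95% intervals from edgeR. PRKRA is the gene whose interval lies above 0 in the 3 comparisons with vector (0.50, 0.52 and 0.48), and every interval of A4 against A1 includes 0.

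The levels of the Microprocessor pair overlapped between the 3 groups. DROSHA, the nuclease, was at 202.3, 199.4 and 220.7 CPM in the vector libraries A, B and C, at 179.8, 203.3 and 235.7 in A1 and at 201.1, 215.5 and 182.3 in A4. The lowest and the highest value were both in A1, and the groups overlapped. Its fold in the NCBP2 arm was 0.978 (95% interval 0.805 to 1.19), the narrowest interval on the log scale among the 10 genes. DGCR8, which recognises the hairpin, was at 33.2, 45.6 and 35.2 CPM in vector, 34.7, 42.4 and 45.1 in A1 and 38.5, 35.8 and 48.2 in A4. Each group held values near 35 and above 45 CPM, and the fold was 1.07 (0.832 to 1.38). The ratio of DROSHA to DGCR8 per kilobase was 5.25 ± 0.99 in vector, 4.77 ± 0.23 in A1 and 4.72 ± 1.07 in A4 (SD, n = 3), with overlapping groups.

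XPO5, the export receptor, was at 136.1, 163.5 and 155.5 CPM in vector, 138.3, 172.2 and 182.5 in A1 and 129.1, 166.3 and 154.9 in A4. In each group library A was the lowest, and the groups overlapped. The fold in the NCBP2 arm was 1.04 (0.833 to 1.29). Exons of XPO5 share 348 bases with POLR1C on the other strand. The counts used were those on the gene's own strand.

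DICER1 varied most among the vector clones. It was at 154.9, 104.7 and 170.0 CPM in vector libraries A, B and C, at 175.9, 152.4 and 158.1 in A1 and at 150.6, 114.0 and 142.3 in A4. In each group library B was the lowest. The coefficient of variation was 23.9% in vector against 7.55% in A1 and 14.1% in A4, and the spread among vector clones was not tested against the others. All 3 A1 libraries were above all 3 A4 libraries, which made DICER1 the 1 of 10 genes without overlap in A4 against A1, where 13.6% of all genes showed none. That difference, a fold of 0.837 (0.623 to 1.12), did not pass (adjusted p = 0.832 by edgeR). Vector library B, the lowest for DICER1, also had the lowest share of uniquely mapped reads on no gene's exons (32.4%). The part of this in the DICER1 value was not tested.

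TARBP2, a partner of DICER1, was the rarest of the 10. It had 129 to 431 counts a library and stood at 8.4, 7.1 and 5.7 CPM in vector, 4.5, 7.3 and 6.7 in A1 and 8.1, 7.1 and 9.7 in A4. The lowest value came from A1 library A, the shallowest library. The A4 mean of 8.26 ± 1.30 was above the A1 mean of 6.18 ± 1.45 CPM (SD, n = 3), a fold of 1.33 whose interval (0.866 to 2.06) is the widest of the 10 genes on the log scale.

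PRKRA was the member that differed most from vector. PRKRA activates the kinase PKR under stress in addition to its part in the DICER1 complex. It was at 66.5, 82.9 and 69.9 CPM in vector libraries A, B and C, at 116.2, 104.5 and 93.4 in A1 and at 103.9, 118.1 and 83.9 in A4. All 6 NCBP2 libraries lay above all 3 vector libraries, with A4 library C only just above vector library B. In the NCBP2 arm it was the 1 gene of 10 without overlap, where 3.74% of all genes showed none. In A1 against vector 2 of the 10 showed none, PRKRA and AGO4, against 14.2% of all genes, and in A4 against vector only PRKRA did, against 12.1%.

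The PRKRA fold was 1.41 in the NCBP2 arm (95% interval 1.12 to 1.78), a log2 difference of 0.50 with an SE of 0.15 (unadjusted p = 0.00631, adjusted p = 0.552 by edgeR). In A1 alone it was 1.43 (1.09 to 1.87, adjusted p = 0.457 by edgeR) and in A4 alone 1.39 (1.07 to 1.83, adjusted p = 0.718 by edgeR), both against the same 3 vector libraries. No edgeR comparison called PRKRA. Limma voom with library weights called it in the NCBP2 arm (log2 difference 0.54, adjusted p = 0.0458), DESeq2 did not (adjusted p = 0.163), and counts summed to 1 value per clone gave an adjusted p of 1 by edgeR. A4 against A1 gave a fold of 0.974 (0.745 to 1.27). In bulk RNA a higher level in all cells and a larger number of cells with that level cannot be told apart. The ratio of DICER1 to PRKRA per kilobase was 1.09 ± 0.35 in vector, 0.85 ± 0.07 in A1 and 0.75 ± 0.20 in A4 (SD, n = 3), with overlapping groups.

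**Figure D3:**
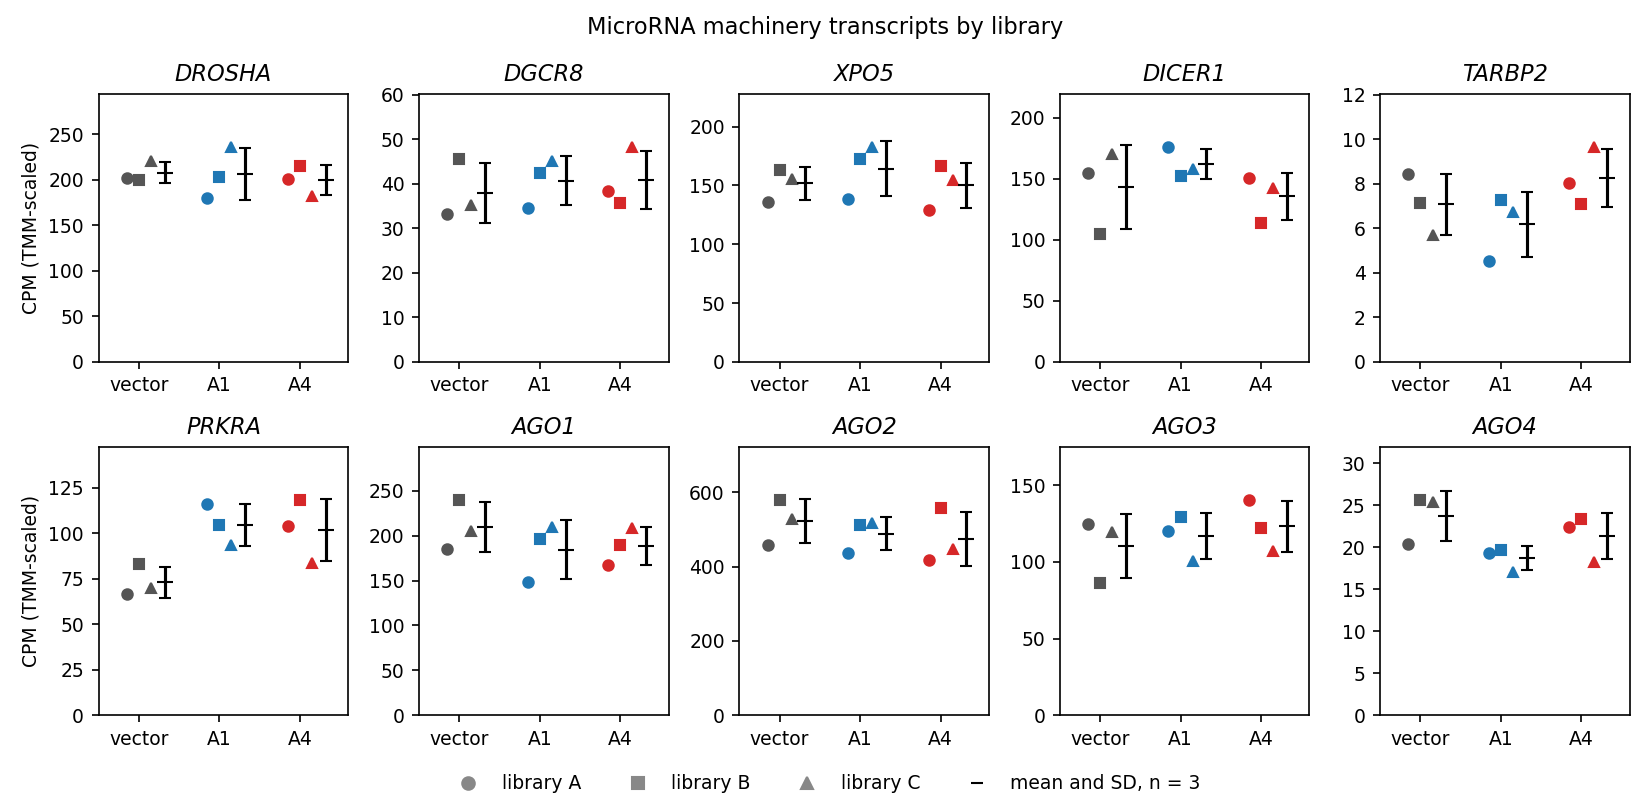
CPM of each of the 10 genes (y axes from 0, TMM-scaled) in every library, by group, with marker shapes for library letters and the mean with SD (n = 3) beside the points. PRKRA is the gene whose 6 NCBP2 libraries (83.9 to 118.1) all lie above its vector libraries (66.5 to 82.9).

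PRKRA lies at chr2:178431292-178451512 on the minus strand (GRCh38, GENCODE v44), and most of the genes around it also had positive fold changes. Among the 20 nearest tested genes on each side, 35 of 40 had a positive log2 fold change in the NCBP2 arm, where 11495 of all 21682 genes did. Their median was 0.37, and 16 of the 40 exceeded PRKRA itself. None of the 40 was called in that comparison by edgeR, DESeq2 or voom, and 8 had an unadjusted p under 0.05 by edgeR, where 5.71% of all genes did. In A1, A4 and A4 against A1 edgeR called 0 of the 40, beside 7, 6 and 2 at an unadjusted p under 0.05. Of all genes, 7.51%, 5.25% and 6.63% passed at that unadjusted p. DESeq2 called 0 of the 40 in each. Voom called 1, AGPS in A1, named after its value was seen, where it called 1.37% of all genes. The neighbours' median was 0.41 in A1, 0.38 in A4 and -0.02 in A4 against A1. In the NCBP2 arm, 5 of the 40 were higher in every NCBP2 library than in every vector library, where 1.47% of all genes were. The same 40-gene median was computed around each of the 20630 tested genes with enough neighbours, in windows that overlap: 2.72% of them had a median at least as high. The neighbour medians of the other 9 genes in the NCBP2 arm lay between -0.13 for AGO2 and 0.10 for AGO1 and AGO3.

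Values above 0 ran on beyond the 40 genes. In steps of 10 Mb from PRKRA, the median log2 fold change of tested genes in the NCBP2 arm was 0.36, 0.57 and 0.44 over the 3 steps below PRKRA in coordinate, taken from the farthest to the nearest, and 0.53, 0.47 and 0.34 over the 3 steps above it. Further up, it was 0.18 between 30 and 40 Mb, -0.0010 between 40 and 50, 0.18 between 50 and 60 and 0.33 between 60 and 70. Further down, it was 0.56 between -40 and -30 Mb, on 17 genes, 0.21 between -50 and -40 and -0.03 to 0.08 a step between -90 and -50. From -160 to -90 Mb the medians were 0.21 to 0.37 a step. This extent was looked at after the neighbours' values were seen.

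The neighbours' values differed between libraries of a group. Taking each neighbour's log2 CPM relative to its vector mean, the median over the 40 genes was -0.07, -0.09 and 0.24 in vector libraries A, B and C, 0.65, 0.34 and 0.35 in A1 and 0.52, 0.41 and 0.26 in A4. Vector library C thus came close to A4 library C for the neighbours, whereas PRKRA itself was at 69.9 CPM there, below every NCBP2 library. Without vector library C the neighbours' median in the NCBP2 arm was 0.57 and the PRKRA log2 difference 0.45. CHROMR, a long noncoding gene that shares 1068 exon bases with PRKRA on the opposite strand, was likewise high in vector library C: it was at 30.6, 26.7 and 49.6 CPM in vector, 52.2, 42.2 and 40.2 in A1 and 46.5, 45.3 and 41.4 in A4, so the groups overlapped. No DNA was measured, and the part of the surrounding stretch in the PRKRA difference was not tested.

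**Figure D4:**
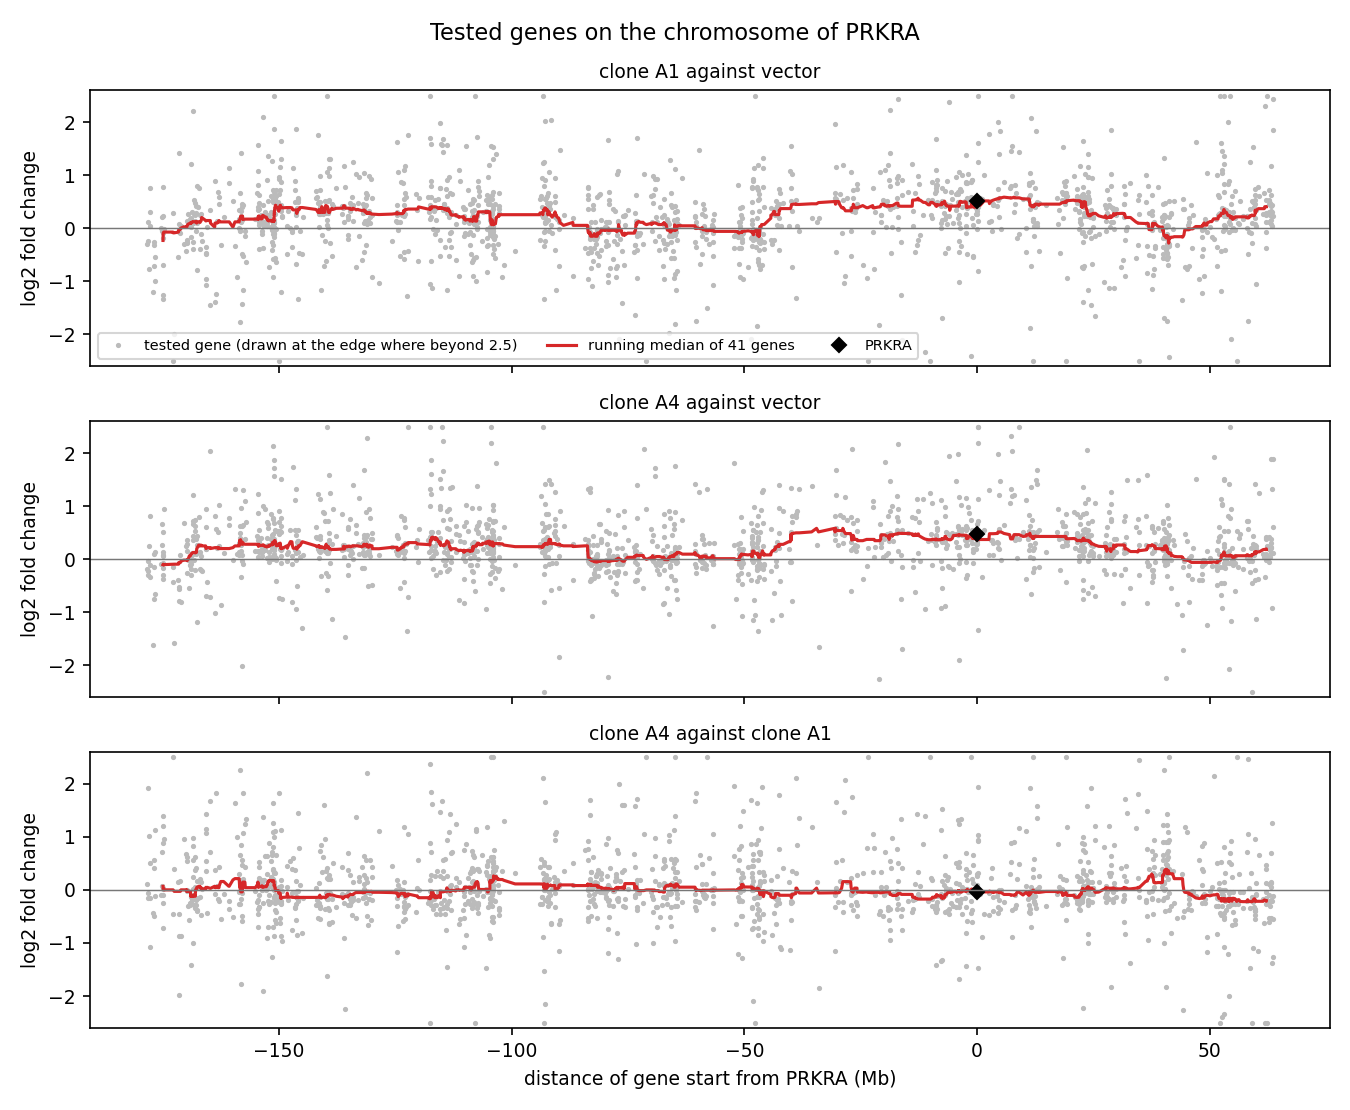
Log2 fold change (y axis) of tested genes on chromosome 2 by the distance of their start from that of PRKRA in Mb (x axis), in A1 against vector, A4 against vector and A4 against A1, with the running median of 41 genes as a line and PRKRA as a diamond. Around distance 0 the line lies near the PRKRA value in both vector comparisons (0.52 and 0.48), and it is near 0 between -90 and -50 Mb. In A4 against A1 PRKRA is at -0.04.

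AGO2, the Argonaute that can cut its targets, was at 459.6, 578.5 and 529.3 CPM in vector, 437.0, 511.6 and 516.9 in A1 and 418.9, 557.0 and 448.8 in A4. The highest value was in vector and the lowest in A4, and the groups overlapped, with a fold of 0.922 (0.753 to 1.13) in the NCBP2 arm. AGO1, AGO3 and AGO4, known for silencing mostly through partner proteins, are adjacent genes on the plus strand of chromosome 1. AGO1 was at 184.6, 239.3 and 205.2 CPM in vector, 147.9, 196.0 and 209.8 in A1 and 167.4, 189.6 and 209.0 in A4. AGO3 was at 124.9, 86.2 and 119.2 in vector, 120.3, 129.5 and 100.4 in A1 and 140.1, 122.0 and 107.3 in A4. Vector library B held both the highest AGO1 and the lowest AGO3 value of the 9 libraries. The folds in the NCBP2 arm were 0.89 for AGO1 (0.712 to 1.11) and 1.09 for AGO3 (0.858 to 1.38).

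AGO4 was the least abundant Argonaute in each group. It was at 20.3, 25.6 and 25.4 CPM in vector, 19.3, 19.7 and 17.0 in A1 and 22.4, 23.4 and 18.2 in A4. All A1 libraries lay below all vector libraries, while A4 overlapped both. The fold was 0.786 in A1 (0.581 to 1.06, adjusted p = 0.739 by edgeR) and 0.898 in A4 (0.665 to 1.21, adjusted p = 0.9997 by edgeR).

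The shares of the 4 Argonautes overlapped between the 3 groups, and their differences were not tested. AGO2 made up 58.5% ± 1.3 of their summed level per kilobase in vector, 59.3% ± 0.5 in A1 and 57.3% ± 3.3 in A4 (SD, n = 3). AGO1 made up 26.5% ± 1.3, 25.1% ± 2.3 and 25.9% ± 3.1, and AGO3 9.39% ± 2.51, 10.7% ± 1.8 and 11.3% ± 2.2. AGO4 gave the rest, 5.68% ± 0.30, 4.88% ± 0.70 and 5.54% ± 0.72. The summed level was 56.3 ± 5.2 CPM per kb in vector, 52.0 ± 4.9 in A1 and 52.1 ± 4.9 in A4, and the groups overlapped.

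Across the 9 libraries, some genes followed individual members closely (Pearson r of log2 CPM over 12246 expressed genes). The r values are given as a description, since libraries of a clone share their source, and differences in RNA quality were not tested. For DROSHA these were FAM20B (r = 0.958), RAP2B (0.952) and CSNK1G1 (0.946). For DICER1 they were USP16 (0.989), CKAP2 (0.988) and KIF11 (0.986), and for AGO2 they were B4GALT1 (0.971), ATF7 (0.970) and URB2 (0.960). Without A1 library A, the values were 0.942, 0.954 and 0.927 for DROSHA, at ranks 15, 8 and 25. They were 0.987, 0.985 and 0.984 for DICER1, at ranks 3, 5 and 8, and 0.966, 0.967 and 0.962 for AGO2, at ranks 3, 2 and 4. Between members, r ran from -0.726 for AGO1 and AGO3 to 0.768 for XPO5 and AGO2, where XPO5 was at rank 332 for AGO2. DROSHA and DGCR8 had an r of -0.03, DICER1 and TARBP2 -0.37 and DICER1 and PRKRA -0.11.

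Of 73 further genes of the pathway, in 6 lists, 71 were tested (LIN28A and TRIM71 were too low). In the 3 comparisons with vector edgeR called 0 of the 71, beside 2, 8 and 2 at an unadjusted p under 0.05 in the NCBP2 arm, A1 and A4, where 5.71%, 7.51% and 5.25% of all genes passed. DESeq2 also called 0 in each, and limma voom with library weights called 0, 0 and 2, the last being FKBP4 and PABPC1, named after their values were seen, beside 1.07% of all genes. In A4 against A1 edgeR called 1 of the 71, FKBP4, beside 0.161% of all genes. The median log2 fold change of the 71 genes was 0.00 in the NCBP2 arm, 0.05 in A1, -0.05 in A4 and -0.14 in A4 against A1, beside 0.02, -0.02, 0.03 and 0.04 over all genes.

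The Microprocessor cofactors (13 tested), which include SRRT, had a median of 0.02 in the NCBP2 arm, and their largest difference was KHSRP, a hairpin-binding protein, at -0.26 (SE 0.17). The nuclear export genes (6 tested) had a median of 0.07, with PHAX, the export adaptor of capped small nuclear RNAs, at 0.29 (SE 0.22). The pre-microRNA modifiers (9 tested) had a median of 0.09. The terminal uridylyltransferase TUT1 was the largest of these at -0.41, on 0 to 131 counts a library. None of these genes passed the test.

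The silencing effectors (24 tested) include factors that shorten tails and decap bound mRNAs, beside others such as TNRC6A and PABPC1. They had a median of -0.02 in the NCBP2 arm, with the deadenylase subunit PAN2 at -0.39 (SE 0.20). The turnover genes (8 tested) had a median of 0.10, with the polynucleotide phosphorylase PNPT1 at 0.45 (SE 0.18, adjusted p = 0.767 by edgeR). The genes that load Argonautes with RNA (11 tested), mostly chaperones, had a median of -0.01, with HSP90AA1 at 0.18 (SE 0.25).

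FKBP4, an HSP90 cochaperone of the loading list, was lower in A4 than in A1. It was at 128.7, 145.0 and 173.6 CPM in A1, 65.9, 65.9 and 76.2 in A4 and 127.5, 118.4 and 91.1 in vector. Every A1 library was above every vector library, A1 library A only just, and every A4 library was below. Of all genes, 14.2% showed no overlap in A1 against vector and 12.1% in A4 against vector. The A4 to A1 difference was -1.10 on the log2 scale (SE 0.18, adjusted p = 0.0345 by edgeR). Against vector, neither clone passed (A1 0.41, adjusted p = 0.642; A4 -0.70, adjusted p = 0.347, by edgeR). The call was lost when A1 library B or C, A4 library A, B or C or vector library A was left out, and also when only the 6 libraries of A1 and A4 were fitted (-1.11, adjusted p = 0.0630 by edgeR), with log2 differences of -1.20 to -0.98 over single libraries left out.

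**Figure D5:**
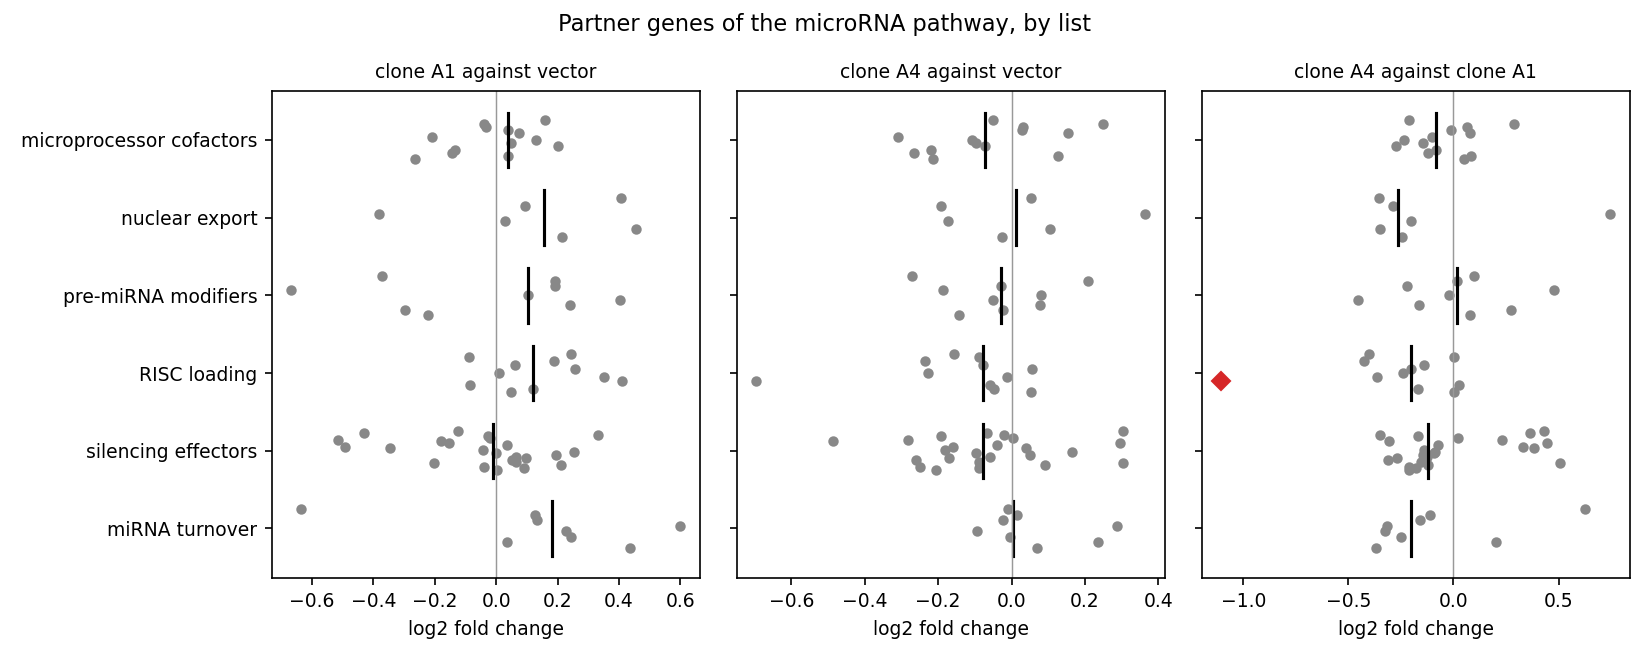
Log2 fold change (x axis) of the 71 tested partner genes by list, in A1 against vector, A4 against vector and A4 against A1, each point 1 gene and each bar the median of its list. The red diamond is FKBP4 at -1.10 in A4 against A1, the 1 gene called.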

How the data were processed

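The authors deposited 1 table of raw read counts per gene for each of 9 libraries. Per the submitters' processing notes, STAR 2.7.1a and GRCh38 were used. The annotation release is not given in the sources used here. The counts on the gene's strand were used, and the lines that name no gene (44.5% to 63.6% of reads) were left out. Of 60609 identifiers, 60295 matched GENCODE v44, which gave positions and exon lengths.

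In R 4.3.3, edgeR 4.0.16 (TMM, filterByExpr, robust quasi-likelihood test) was fitted with 2 groups for the NCBP2 arm and with 3 groups for single clones, with Benjamini-Hochberg adjustment over 21682 genes. The 3-group fit shared 1 estimate of spread over all 9 libraries, which pools separate vector clones with libraries of a single clone. Log2 CPM used a prior count of 2. The scripts were tested on simulated data. The members and lists were chosen with earlier results of these data known. Named were all 10 members, pathway genes past the threshold, the gene with the largest change of each list, the 3 genes most like DROSHA, DICER1 and AGO2, and medians of 20 neighbours on each side. CHROMR and the 10 Mb steps were added after values were seen. Alternatives were DESeq2 1.42.0, limma 3.58.1 voom with library weights, RLE scaling, no filter, counts without regard to strand, a replicate block, counts summed per clone, only the libraries compared, and each library left out.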

Additional observations from a re-analysis of the deposited data

Results flagged for a closer look

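FKBP4 differed between the libraries of the 2 NCBP2 clones. Relative to the same vector libraries, every A1 library was higher and every A4 library lower. Of all genes, 14.2% showed no overlap in A1 against vector and 12.1% in A4 against vector. The log2 fold change of A4 over A1 was -1.10 (SE 0.18, adjusted p = 0.0345 by edgeR), and over the alternatives the adjusted p ran from 3.099e-05 (DESeq2) to 0.2683 (without A4 library A). The direction was the same in all 16 alternatives, and 9 of them kept the call.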

How the results depend on the processing

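In every alternative and comparison 0 of the 10 members were called, except that limma voom with library weights called 1 (PRKRA) in the NCBP2 arm. The PRKRA log2 difference was positive in all 16 alternatives of each vector comparison, from 0.42 to 0.60 in the NCBP2 arm, 0.36 to 0.62 in A1 and 0.34 to 0.59 in A4. The NCBP2 arm called 4 genes in all, beside 103 by DESeq2, 216 by voom, 20 without the filter and 0 with counts summed per clone. A1 called 14, beside 274, 297 and 312 without the filter, and 7 in the 6 libraries compared. A4 called 25, beside 185, 233 and 163 without the filter, and A4 against A1 called 35, beside 246, 149 and 231. Leaving out single libraries gave 1 to 8, 3 to 14, 7 to 41 and 10 to 56 genes. Whether the replicate letters pair the libraries was not settled. Same-letter deviations correlated between -0.10 and 0.18 and different-letter ones between -0.27 and 0.22. By letter, the range was 0.13 to 0.15 for A, -0.03 to 0.16 for B and -0.10 to 0.18 for C. Not every library correlated best with its own letter. A fit with the replicate block called 13, 38, 53 and 51 genes in all, 0 of the 10 members in each comparison and 1 of the 71 pathway genes, in A4 against A1.

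Members near 0 changed sign. With voom in the NCBP2 arm, DROSHA was 0.0088, DICER1 -0.047 and TARBP2 -0.0065. With voom in A1, DROSHA was 0.046, AGO1 0.011, AGO2 0.046 and AGO3 -0.026. With voom in A4 against A1, DGCR8 was -0.11, PRKRA 0.013 and AGO1 -0.14. Without regard to strand, XPO5 was -0.0043 in the NCBP2 arm and PRKRA 0.19 in A4 against A1. With only the 6 libraries compared, DGCR8 was -0.0032 in A4 against A1. Leaving out single libraries in the NCBP2 arm gave -0.13 to 0.18 for DICER1, -0.12 to 0.16 for TARBP2, -0.0023 to 0.25 for DGCR8, -0.033 to 0.11 for XPO5 and -0.026 to 0.21 for AGO3. In A1 it gave -0.12 to 0.088 for DROSHA, -0.062 to 0.18 for AGO3 and -0.00066 to 0.31 for DICER1. In A4 it gave -0.12 to 0.066 for XPO5, -0.26 to 0.044 for DICER1 and -0.051 to 0.25 for DGCR8. In A4 against A1 it gave -0.15 to 0.085 for DGCR8, -0.17 to 0.068 for PRKRA, -0.10 to 0.14 for AGO1, -0.14 to 0.062 for DROSHA, -0.19 to 0.033 for AGO2 and -0.034 to 0.16 for AGO3. The cause of these shifts was not tested. The NCBP2 arm rests on 2 clones with 3 libraries each. TARBP2 had 129 to 431 counts a library.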
